A study of Mus musculus with 6 samples.

Results

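The genes examined here encode the constitutive subunits of the proteasome in mouse lung tumors. They were chosen by name: every array gene whose symbol is Psma, Psmb, Psmc, Psmd or Psme with a number, without Psmb8, Psmb9 and Psmb10, which encode the catalytic subunits of the immunoproteasome. This gave 39 genes out of 36870 gene names on the array. Of these, 38 could be tested. The remaining one, Psmb11, encodes a catalytic subunit of the thymus and was too dim: 0 of 6 readings in tamoxifen and 0 of 6 in oil channels were well above background, and its log2 ratios were -0.04, -0.05 and 0.06. The array holds no probe under the name Psme2, and that gene was not analysed here.

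All mice were C57BL/6J and carried the same alleles, Ror1f/f, CAG-CreER and SPC-hEGFRdel746-750, so the Cre recombinase, the floxed gene and the tumor transgene are common to both groups. Mice of the tamoxifen group were treated between 16 and 20 weeks of age, that is for 4 weeks, and those of the oil group got corn oil over the same time. Lung tumor RNA was taken at 20 weeks. CAG is a promoter active in nearly all cells, so deletion would not be limited to the tumor cells, whereas SPC, the surfactant protein C promoter, drives the mutant human EGFR in alveolar epithelium. There were 3 samples a group, and a tamoxifen and an oil sample with the same number formed a couple that shared 2 arrays, once in each dye orientation. The labels do not say that the numbered samples are separate animals, and the p-values below measure only the spread between these samples. Each group held samples of more than 1 animal by sex-linked RNA: the log2 signal of the Y-linked gene Eif2s3y was 9.73, 6.20 and 10.70 in tamoxifen samples 1, 2 and 3 and 6.01, 6.06 and 10.07 in oil samples 1, 2 and 3. For every gene, couple 1 thus set a tamoxifen sample high in Eif2s3y against an oil sample low in it. The part of sex in the ratios was not tested. Ror1 itself, the gene that tamoxifen is meant to delete, had log2 ratios of tamoxifen over oil of 0.58, 0.44 and 0.18 in couples 1, 2 and 3 (limma, adjusted p = 0.69), against the direction of the label. The mean of these ratios was 0.40, and it was 0.15 when averaged with a second, dim Ror1 probe that had 0 readings well above background. Whether either probe lies in the floxed stretch is not given, so groups are named below by their labels.

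The proteasome is the barrel-shaped protease that degrades ubiquitin-tagged proteins. Its core particle is a stack of rings of alpha subunits, which gate the entrance, and beta subunits, some of which cut proteins. A regulatory particle on top has a base, whose ATPases unfold the substrate, and a lid, which removes ubiquitin. Cap proteins encoded by the Psme genes can dock in place of the regulatory particle. Degradation of HIF-1α in oxygenated cells ends at this machine, after the VHL ubiquitin ligase has tagged it. Subunit genes are known to be induced together by NRF1, encoded by Nfe2l1, when proteasome activity falls short.

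Each gene was read by a 60-base probe, the brightest one where several carried its name. The sequences of 5 probes are shown because the members they read are catalytic subunits or stand for the low group on chromosome 7 and the high group on chromosome 14 described below. The letters are in lower case with none marked, 5′ to 3′ in the direction of the transcript.
Psmb5 (chr14:55233161-55233220, minus strand, mm9): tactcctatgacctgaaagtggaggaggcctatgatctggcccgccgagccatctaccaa
Psmb7 (chr2:38468966-38489385, minus strand, mm9): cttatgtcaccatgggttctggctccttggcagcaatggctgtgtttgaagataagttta
Psmc4 (chr7:28827132-28827373, minus strand, mm9): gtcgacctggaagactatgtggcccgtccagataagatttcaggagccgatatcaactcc
Psmd8 (chr7:29961170-29962121, minus strand, mm9): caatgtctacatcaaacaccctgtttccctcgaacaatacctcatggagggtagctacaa
Psmc6 (chr14:45966487-45968313, plus strand, mm9): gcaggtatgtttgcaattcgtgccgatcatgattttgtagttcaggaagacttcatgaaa
The probes of Psmb7, Psmc4, Psmd8 and Psmc6 stretch over 20420, 242, 952 and 1827 genomic bases, so each bridges at least 1 intron and can pair along its whole length only with spliced RNA. The Psmb5 probe covers 60 unbroken bases.

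No subunit gene passed the test. The mean log2 ratios of tamoxifen over oil of the 38 genes lay between -0.23 and 0.34, and 0 reached 1.5-fold. Among all 20475 tested genes the share that passed limma at an adjusted p under 0.05 was 0%, and the share at 1.5-fold or more was 1.59%. Adjusted p for the subunits ran from 0.688 to 0.991. At an unadjusted p under 0.05 there was 1 subunit, Psmd10, on the higher side (2.63% of 38, against 3% of all genes) and 0 on the lower side (against 4.01%). The ratio was above 0 in all couples for 6 subunits (15.8%, against 13.8% of all genes) and below 0 in all couples for 4 (10.5%, against 16.4%). All tamoxifen samples were above all oil samples for 3 subunits (7.89%, against 5.2%) and below them for 2 (5.26%, against 7.12%). Read against the shares of all genes, these counts do not set the subunits apart.

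In the fit of the couples, the precision was enough to bound the ratios as measured, though background correction pulls those of dim probes toward 0. All 38 tested subunits were well above background in every reading of both groups. The 95% confidence intervals of their log2 ratios lay between -0.48 and 0.55, and for 38 of 38 the interval stayed within 1.5-fold in either direction. The interval of 37 included 0. These intervals hold for the couples taken as pairs. With 3 tamoxifen samples set against 3 oil samples unpaired, Psmd10 had an unadjusted p of 0.10 (limma), and intervals were not computed. The median of the subunits' mean ratios was 0.04, against 0.00 for all tested genes. By couple the median was 0.12, 0.10 and -0.09 in couples 1, 2 and 3, and the sign turned in the third.

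**Figure D1:**
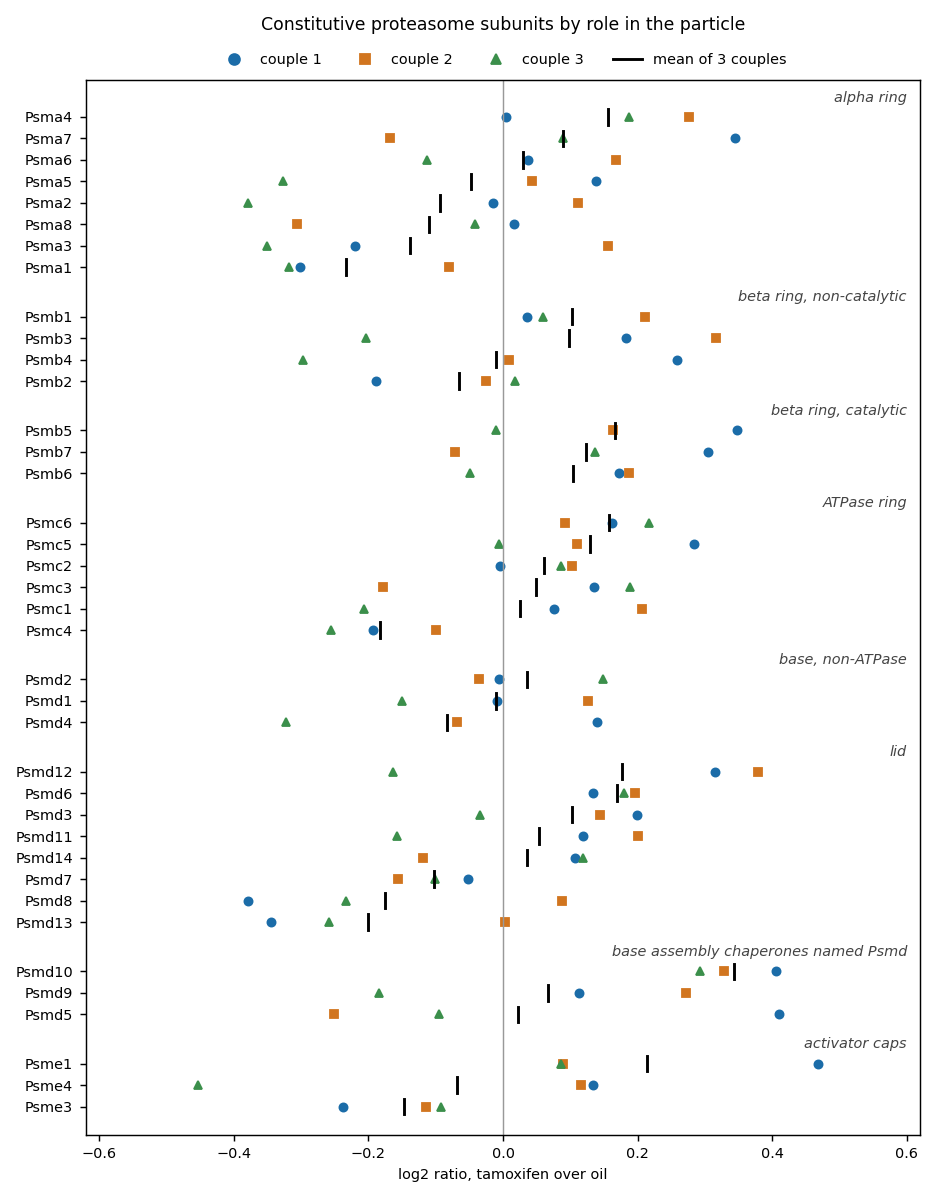
Log2 ratio of tamoxifen over oil (horizontal axis) of the 38 tested subunit genes, grouped by role. Points are the 3 couples, each the average of 2 dye-swapped arrays, and black bars are their mean. Means lie between -0.23 and 0.34, and most genes have couples on both sides of 0.

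Among the alpha subunits, Psma1 was the lowest of all members. Its normalized log2 signal was 12.70, 12.90 and 12.72 in tamoxifen samples 1, 2 and 3, against 13.01, 12.98 and 13.04 in oil samples 1, 2 and 3. The groups did not overlap, and the couples' ratios were -0.30, -0.08 and -0.32, averaging -0.23 ± 0.13 (SD, n = 3 couples; limma, adjusted p = 0.688). Psma4 stood on the other side, at 13.43, 13.62 and 13.45 in tamoxifen samples and 13.43, 13.34 and 13.27 in oil samples. Here too the groups did not overlap, but in couple 1 the margin was 0.00. The 3 other probes of Psma4 gave means of 0.11, 0.13 and 0.15, beside 0.16 for the brightest. The 8 alpha genes had a median of -0.07, with 0.01, 0.08 and -0.22 in couples 1, 2 and 3. Psma8, a testis form of an alpha subunit, was the dimmest tested member, at a mean log2 signal of 6.74, and averaged -0.11.

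The 3 tested catalytic beta subunits were all on the higher side of 0 on average, without passing. Psmb5, which carries the chymotrypsin-like activity, measured 12.29, 12.01 and 11.92 in tamoxifen samples, against 11.94, 11.85 and 11.93 in oil samples. Sample 1 of the tamoxifen group was the highest, and the groups overlapped. Its mean ratio was 0.17 ± 0.18 (SD, n = 3 couples; limma, adjusted p = 0.738). Psmb6, with the caspase-like activity, measured 14.33, 14.21 and 14.21 in tamoxifen samples and 14.16, 14.02 and 14.26 in oil samples, for a ratio of 0.10 ± 0.13. Psmb7, with the trypsin-like activity, measured 11.46, 11.28 and 11.51 in tamoxifen samples and 11.15, 11.35 and 11.37 in oil samples, for a ratio of 0.12 ± 0.19. Each of these genes was below 0 in 1 couple, Psmb7 in couple 2 and the others in couple 3. The non-catalytic beta genes, 4 in number, ranged from -0.07 to 0.10.

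In the base, the ATPase ring held a member on each side. Psmc6 measured 12.82, 12.82 and 12.79 in tamoxifen samples, against 12.66, 12.73 and 12.57 in oil samples, and the groups did not overlap. Its mean ratio was 0.16 ± 0.06 (SD, n = 3 couples; limma, adjusted p = 0.705). Psmc4 measured 11.26, 11.30 and 11.11 in tamoxifen samples, against 11.46, 11.40 and 11.36 in oil samples, again with no overlap. Its mean ratio was -0.18 ± 0.08 (limma, adjusted p = 0.688). These proteins sit in one ring with equal copy number, yet by the brightest probes their RNA ratios differed in sign in every couple. A dimmer probe of Psmc6 was at 0.04, -0.05 and 0.49 in couples 1, 2 and 3, and one of Psmc4 at -0.02, -0.26 and -0.06. By these dimmer probes both genes were below 0 in couple 2. The 6 ATPase genes had the smallest swing of the groups between couples, with medians of 0.11, 0.10 and 0.04. The non-ATPase base genes Psmd1, Psmd2 and Psmd4, the last a ubiquitin receptor, averaged between -0.08 and 0.04.

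The lid genes spread over the same range. Psmd6 had the smallest SD over couples of all members: 12.60, 12.67 and 12.52 in tamoxifen samples, against 12.46, 12.47 and 12.34 in oil samples. Every tamoxifen sample was above every oil sample, and the mean ratio was 0.17 ± 0.03 (SD, n = 3 couples; limma, adjusted p = 0.691). Its other probes averaged 0.21 and 0.20. Psmd12 measured 12.53, 12.48 and 12.29 in tamoxifen samples and 12.21, 12.11 and 12.45 in oil samples. It was the higher of its couple in couples 1 and 2 and the lower in couple 3, for a ratio of 0.18 ± 0.30. On the lower side, Psmd13 measured 12.52, 12.72 and 12.71 in tamoxifen samples and 12.87, 12.72 and 12.97 in oil samples, for a ratio of -0.20 ± 0.18. Psmd8 measured 11.26, 11.47 and 11.16 in tamoxifen samples and 11.64, 11.39 and 11.39 in oil samples, for a ratio of -0.17 ± 0.24. Psmd7, the partner of the deubiquitinase Psmd14, was at -0.05, -0.16 and -0.10 in couples 1, 2 and 3. It had the second smallest SD, 0.05, and its dimmer probe was at -0.26 on average. The arrays of Psmd7 split by dye in each couple, however. They read -0.25, -0.34 and -0.25 where Cy5 marked tamoxifen and 0.14, 0.03 and 0.05 where Cy3 did.

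Psmd10 had the smallest p of all members. It encodes gankyrin, a chaperone that helps assemble the base and is known as an oncoprotein in liver cancer. Its signal was 11.20, 10.88 and 10.60 in tamoxifen samples, against 10.79, 10.55 and 10.31 in oil samples. The tamoxifen sample was higher in each couple, but the groups overlapped because the couples differed in level. The ratio was 0.41, 0.33 and 0.29, a mean of 0.34 ± 0.06 (SD, n = 3 couples; limma, unadjusted p = 0.00832, adjusted p = 0.688), or 1.27-fold. All 6 arrays were on the same side, at 0.34, 0.31 and 0.24 where Cy5 marked tamoxifen and at 0.47, 0.35 and 0.35 where Cy3 did. The gene is on the X chromosome, and couple 1 was mismatched in sex-linked RNA: Xist was at -2.13 and the Y-linked gene Eif2s3y at 3.71 there. In couples 2 and 3 Xist was at 0.09 and 0.10 and Eif2s3y at 0.14 and 0.63, with Uty, also Y-linked, at -0.08 and 0.79. The part of sex in the Psmd10 ratio was not tested. The other base chaperones, Psmd5 and Psmd9, swung between couples, from -0.25 to 0.41 and from -0.18 to 0.27.

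The caps did not move as a group. Psme1, a subunit of the interferon-inducible cap, measured 14.14, 13.70 and 13.88 in tamoxifen samples, against 13.67, 13.61 and 13.80 in oil samples. Most of its mean of 0.21 ± 0.22 (SD, n = 3 couples; limma, adjusted p = 0.71) came from couple 1, at 0.47. Psme4, of the cap found in nuclei, measured 12.14, 12.08 and 11.90 in tamoxifen samples and 12.01, 11.96 and 12.36 in oil samples. Its ratio of -0.45 in couple 3 was the lowest single-couple ratio of any member. Psme3 encodes another nuclear cap, and its arrays split by dye. The couples were at -0.24, -0.11 and -0.09, but the arrays read 0.28, 0.38 and 0.38 where Cy5 marked tamoxifen and -0.76, -0.61 and -0.56 where Cy3 did. The sign followed the dye and not the treatment, and a dimmer Psme3 probe gave a mean of 0.08.

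**Figure D2:**
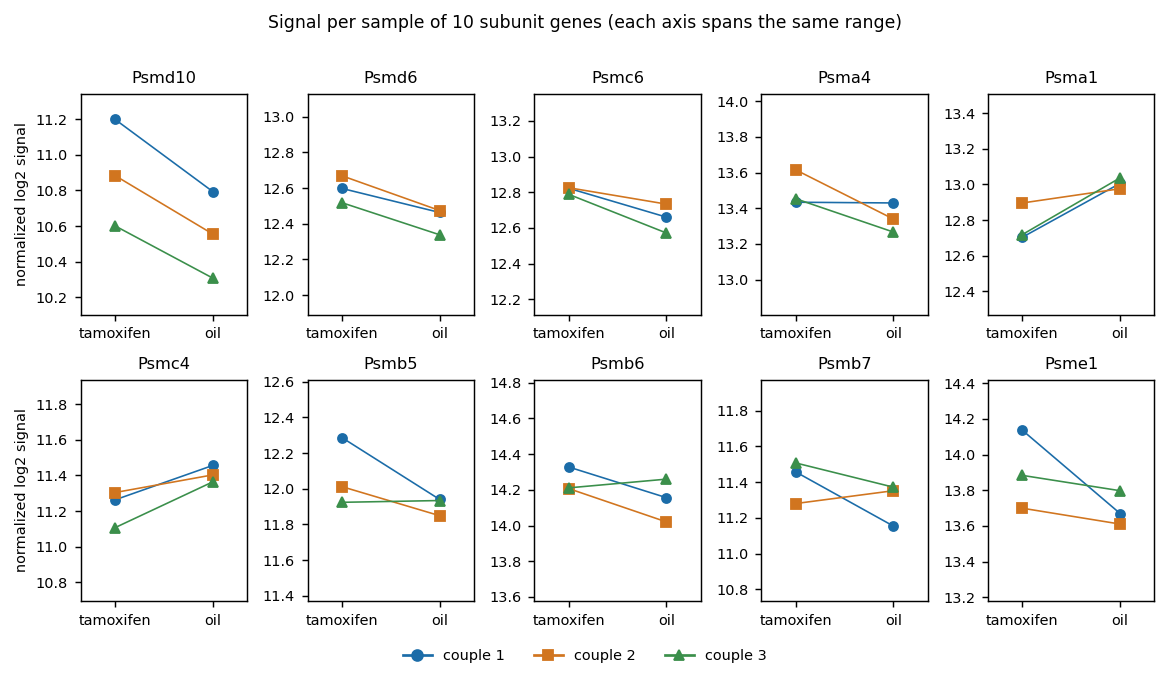
Normalized log2 signal (vertical axes, all spanning the same range) of 10 subunit genes in the 3 tamoxifen samples (left in each panel) and the 3 oil samples (right), with lines joining the samples of a couple. Psmd6, Psmc6 and Psma4 have no overlap on the higher side and Psma1 and Psmc4 none on the lower side.

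Separate probes of a gene mostly gave mean ratios near each other, but the ratios themselves were small. For 21 tested subunits more than 1 probe passed the filter on background, with 31 probes besides the brightest ones. Their mean ratios differed from that of the brightest probe by a median of 0.04, and 25 of 31 by less than 0.1. The median absolute mean ratio of the subunits was itself 0.10. For 8 of 31 the sign differed, in 6 genes. Psmd10 and Psma1, the highest and lowest members by mean ratio, had only 1 probe each. The widest gaps were those of Psme3 (0.23) and Psmb2, a non-catalytic beta subunit, whose 3 probes averaged -0.07, 0.09 and 0.13. Taken couple by couple, the ratios of these other probes and of the brightest probe of the same gene correlated with r = 0.72 (93 points, which share genes and arrays).

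Within a couple, subunit genes of 1 chromosome mostly had like ratios, a pattern looked for after the values were seen. The 4 subunit genes on chromosome 7, Psma1, Psmc4, Psmd8 and Psmd13, were the 4 lowest of the 38 by mean ratio. They encode an alpha subunit, an ATPase and lid subunits. In couple 1 they were at -0.30, -0.19, -0.38 and -0.34, in couple 2 at -0.08, -0.10, 0.09 and 0.00, and in couple 3 at -0.32, -0.26, -0.23 and -0.26. The median of the 1495 other tested genes of chromosome 7 was -0.16, -0.07 and -0.09 in couples 1, 2 and 3. On chromosome 14 the ratios of Psmb5, Psmc6, Psmd6 and Psme1 had medians of 0.25, 0.13 and 0.13. The 749 other tested genes there had medians of 0.06, 0.04 and 0.08.

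On chromosomes 2, 3 and 11 the sign of the chromosome's median turned between couples, and most but not all subunits were on its side. The 5 genes on chromosome 2, which are Psma7, Psmb7, Psmc3, Psmd5 and Psmd14, had medians of 0.30, -0.17 and 0.12 in couples 1, 2 and 3. The 1560 other tested genes of that chromosome had medians of 0.10, -0.11 and 0.05. Psmd5 was the exception in couple 3, at -0.09. On chromosome 3 Psma5, Psmb4 and Psmd4 were at -0.33, -0.30 and -0.32 in couple 3 and at 0.14, 0.26 and 0.14 in couple 1, beside chromosome medians of -0.13 and 0.04. In couple 2 they were at 0.04, 0.01 and -0.07, where the chromosome was at -0.05. Psma8, on chromosome 18, was at -0.31 in couple 2 beside a median of 0.03. The 8 genes of chromosome 11 had medians of 0.18, 0.17 and -0.12, beside 0.09, 0.06 and -0.06 for the 1564 other tested genes. Psme3 in couples 1 and 2 was the exception there. On chromosome 12, Psma3, Psma6 and Psmc1 were at -0.22, 0.04 and 0.08 in couple 1, beside a median of 0.02. Psma3 thus differed in sign from its chromosome in that couple. The 3 genes were at 0.16, 0.17 and 0.21 in couple 2 and at -0.35, -0.11 and -0.21 in couple 3. The median of chromosome 12 was 0.08 and -0.03 in these couples.

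**Figure D3:**
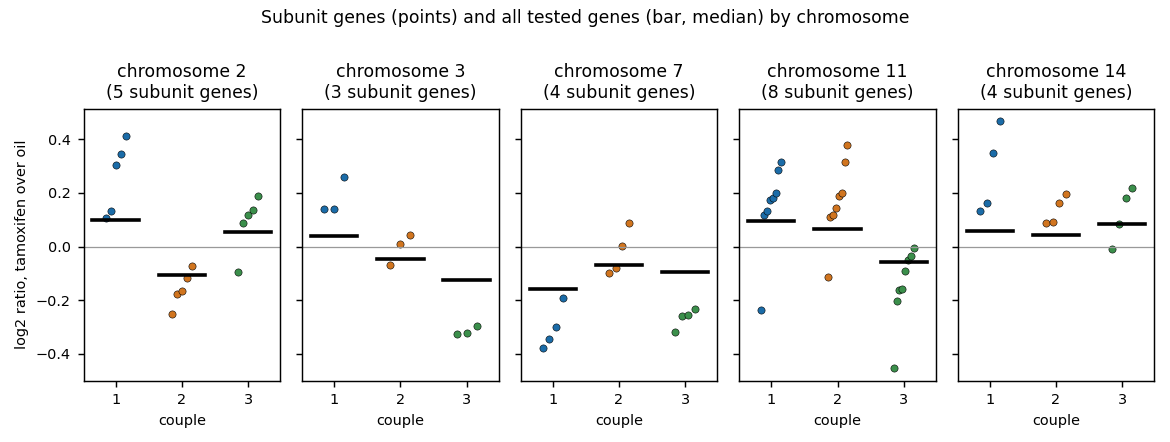
Log2 ratios of tamoxifen over oil (vertical axis) of the subunit genes on chromosomes 2, 3, 7, 11 and 14, in each couple. Chromosome 12, which also holds 3 subunit genes, is not shown. Points are genes and black bars are the median of the other tested genes of the chromosome. Points lie mostly on the side of the bar, as on chromosome 2, with medians of 0.30, -0.17 and 0.12.

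Over all 38 subunits, on 16 chromosomes, the ratio correlated with the median of the other tested genes on the same chromosome with r = 0.74 in couple 1, 0.72 in couple 2 and 0.83 in couple 3. Genes of a chromosome share that median and the arrays, so the points are not independent and no p is given. The subunit was on the same side of 0 as its chromosome for 33, 31 and 35 of 38. That count was made for the subunits only, so no share of all genes stands beside it. With the median of genes within 10 Mb in place of the chromosome, r was 0.75, 0.69 and 0.82. On single arrays r ranged from 0.52 to 0.78. Across all 20311 tested genes with a position the same r was 0.24, 0.25 and 0.22. Across the 7413 of them with a mean log2 signal of at least 10, where most subunits lie, it was 0.31, 0.32 and 0.30. Across 75 cytosolic ribosomal protein genes, which also encode parts of a complex, it was 0.59, 0.74 and 0.74. Subtracting the chromosome's median narrowed the SD over the subunits to 0.16, 0.13 and 0.14, against 0.21, 0.17 and 0.19 before, in couples 1, 2 and 3. DNA was not measured here, and what moves with a chromosome was not tested. Psmd10 was above its chromosome in each couple, with X medians of 0.06, 0.09 and 0.05.

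**Figure D4:**
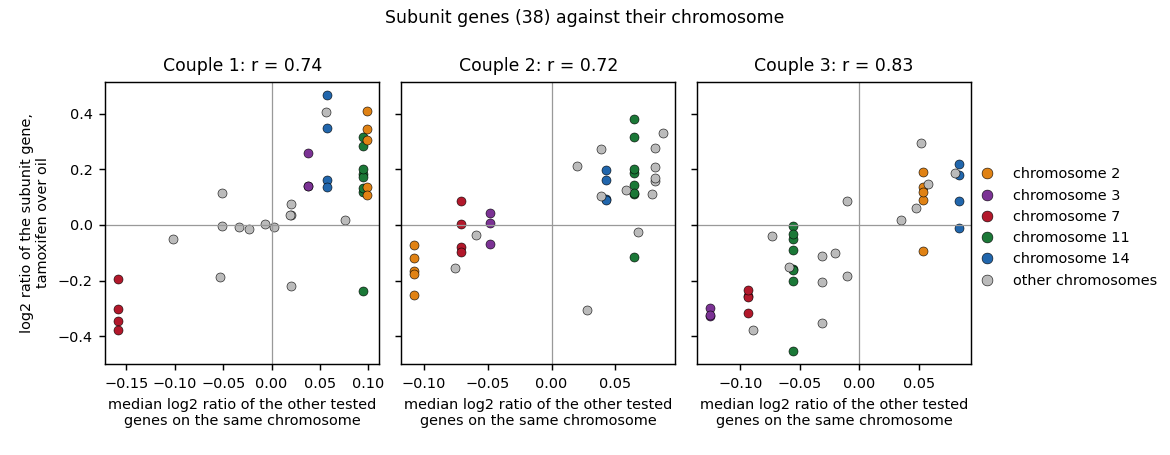
Log2 ratio of tamoxifen over oil of the 38 subunit genes (vertical axis) against the median log2 ratio of the other tested genes on the same chromosome (horizontal axis), 1 panel a couple. Colours mark chromosomes 2, 3, 7, 11 and 14, and r is 0.74, 0.72 and 0.83 in couples 1, 2 and 3.

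Genes that build, regulate or feed the proteasome gave no call either. For these lists the counts at an unadjusted p under 0.05 are read against the 3% higher and 4.01% lower of all genes. Of the 3 immunoproteasome catalytic genes 0 had an unadjusted p under 0.05: Psmb8, Psmb9 and Psmb10 were at 0.11 ± 0.06, -0.04 ± 0.08 and 0.04 ± 0.13 (SD, n = 3 couples). Of 6 core assembly factors and inhibitors, 5 were above 0 on average, with 0 at an unadjusted p under 0.05. Psmg1, an assembly chaperone, was at 0.33, 0.11 and 0.13 in couples 1, 2 and 3, and Psmg3, another, at 0.20, 0.30 and 0.01. The inhibitor gene Psmf1 was at 0.45, -0.11 and 0.27, with the signs of chromosome 2, which carries it.

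Of 14 tested receptors, shuttles and deubiquitinases 0 had an unadjusted p under 0.05. The lid-bound subunit Sem1 was at -0.22 ± 0.22 and the shuttle Ubqln2 at 0.13 ± 0.17 (SD, n = 3 couples). Among 7 genes of the p97 segregase, which pulls tagged proteins out of complexes, Ufd1 was at -0.21, -0.16 and -0.20 in couples 1, 2 and 3 (limma, adjusted p = 0.688). Among 6 ubiquitin genes and activating enzymes, Uba1, on the X chromosome, was at 0.16 ± 0.04 and Uba6 at -0.12 ± 0.03, with 0 at an unadjusted p under 0.05.

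Among the regulators of subunit transcription, Nfe2l1, encoding NRF1, was at -0.02, 0.00 and -0.13 in couples 1, 2 and 3. Nfe2l2, encoding the oxidative stress factor NRF2, was at 0.44, -0.57 and -0.09. Ngly1, which removes sugar chains from NRF1, was the 1 of 8 in its list at an unadjusted p under 0.05, at 0.27 ± 0.12 (limma, unadjusted p = 0.029, adjusted p = 0.688), and it lies on chromosome 14. In the VHL ligase list of 5 tested genes, Rbx1, its RING subunit, was the 1 with an unadjusted p under 0.05, at -0.21 ± 0.04 (limma, unadjusted p = 0.046, adjusted p = 0.688). Vhl, the substrate receptor for HIF-1α, was at -0.17, 0.01 and -0.08 (limma, adjusted p = 0.833).

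**Figure D5:**
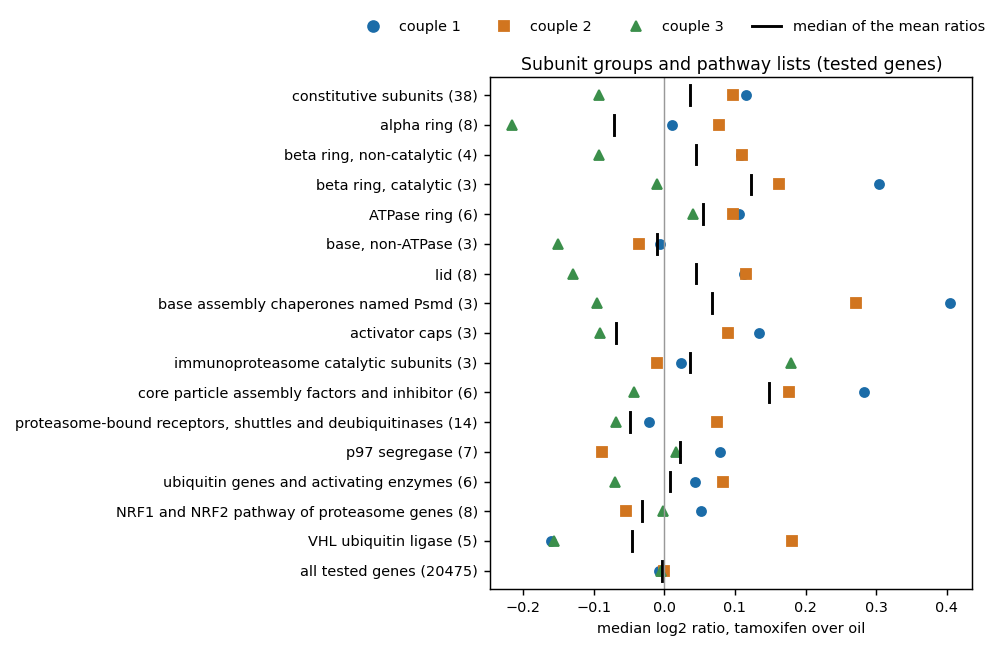
Median log2 ratio of tamoxifen over oil (horizontal axis) of the subunit groups and of the related lists, with the number of tested genes in brackets. Points are the 3 couples and bars the median of the mean ratios; the constitutive subunits are at 0.12, 0.10 and -0.09, and all tested genes near 0 in each couple.

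The promoters of the subunits were searched for a pair of motifs, since NRF1 and NRF2 bind antioxidant elements and NF-Y binds CCAAT. RefSeq windows (GRCm38.p6) of 300 bases, from 250 before to 50 after the start, were at hand for 32 of 39 genes. TGACNNNGC, searched on both strands, was in the windows of 6 of them (18.8%), against 13.99% of 27025 genes. CCAAT, also on both strands, was in 13 (40.6%), against 41.1%. The 6 genes with TGACNNNGC had a median mean ratio of 0.13, and the 25 tested genes without it 0.03. Both catalytic genes among the 6 and a base chaperone are shown with the matching letters in capitals, read along the gene's strand.
Psmb5 (chr14:54618024-54618052, minus strand, GRCm38.p6): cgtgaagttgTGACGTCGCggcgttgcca
Psmb6 (chr11:70525338-70525366, plus strand, GRCm38.p6): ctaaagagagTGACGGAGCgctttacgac
Psmd9 (chr5:123228149-123228177, plus strand, GRCm38.p6): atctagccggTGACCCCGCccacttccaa
The ratios of these genes in couples 1, 2 and 3 were 0.35, 0.16 and -0.01 for Psmb5, 0.17, 0.19 and -0.05 for Psmb6, and 0.11, 0.27 and -0.18 for Psmd9. These 3 were above 0 in couples 1 and 2 and below 0 in couple 3, and so were Psmd12, at 0.31, 0.38 and -0.16, and Psme4, at 0.13, 0.12 and -0.45. Psmc6, the other gene with a match, was above 0 in every couple, at 0.16, 0.09 and 0.22. The 25 tested genes without TGACNNNGC had medians of 0.08, 0.09 and -0.15 in couples 1, 2 and 3. The turn in couple 3 was thus not particular to genes with the motif. Psmb6, Psmd12 and Psme4 lie on chromosome 11, and Psmb5 and Psmc6 on chromosome 14. For CCAAT the median mean ratio was 0.03 with the motif and 0.05 without it.

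By array and channel, 53.9% to 60.6% of the non-control spots counted as well above background. Over all tested genes the dye-swapped arrays of a couple correlated with r from 0.76 to 0.79. For the 38 subunits alone that r was 0.31 to 0.47. For the subunits' ratios in different couples, r was 0.18 for couples 1 and 2, 0.37 for 1 and 3 and -0.01 for 2 and 3, over genes that share these arrays.

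Marker RNA of several cell types differed between the samples, and in bulk RNA fewer cells of a type and less RNA per cell cannot be told apart. Alveolar type 2 cells belong to the alveolar epithelium, where the SPC promoter drives the EGFR transgene. Of 10 markers listed for them, all 10 were well above background, and 9 averaged below 0. The log2 of their summed signal was 19.22 to 19.24 in tamoxifen samples, against 19.52 to 19.56 in oil samples, with no overlap. The brightest surfactant genes dominate this sum. Taken singly, 5 of the 10 had no overlap on the lower side (50%, against 7.12% of all genes) and 0 on the higher side (against 5.2%). The summed levels of all the other marker lists overlapped between the groups. For 13 tested alveolar macrophage markers it was 16.17 to 18.10 in tamoxifen samples and 16.96 to 17.75 in oil samples, with median ratios of -1.10, 0.66 and -0.38 in couples 1, 2 and 3. For 13 proliferation markers it was 14.53 to 14.89 and 13.97 to 14.93, with median ratios of -0.26, 0.25 and 0.93. For 4 tested erythroid markers of 6 it was 13.33 to 14.70 and 13.13 to 15.26. Heart muscle markers, 7 tested of 8, were at 10.57 to 10.72 and 10.65 to 11.33. T and NK cell markers, 6 tested of 10, were at 11.16 to 11.38 and 11.12 to 11.29, and 14 interferon-stimulated genes at 14.02 to 14.30 and 13.90 to 14.26, tamoxifen before oil in each case. The part of these cells in the subunits' ratios was not tested.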

How the data were processed

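RNA of 3 tamoxifen and 3 oil samples was read on 6 Agilent 2-colour arrays of 1 slide, 50 ng of RNA per labelling, per the labels' protocols. The deposited scanner files hold spot intensity per channel without normalization and a log10 ratio of Cy5 over Cy3, per the file headers, made with Agilent Feature Extraction (version 12.0.3.1 in the submitters' processing notes). The deposited files also hold flags (0 or 1) per the file headers. The deposited series table holds log2 ratios, which matched the log10 ratio with a slope of 3.32 to 3.33, so that its scale and direction were settled. Its columns had medians of 0.14, -0.14 and -0.06 (couples 1, 2 and 3, Cy5 tamoxifen) and of 0.13, -0.15 and -0.0055 (Cy5 oil). Probe positions are mm9.

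From the intensities, normexp with an offset of 50 and loess within arrays were run in limma 3.58.1 (R 4.3.3), leaving out control spots (weight 0 in the loess) and 89 to 132 spots an array with outlier flags; 0 spots were saturated. The brightest of a gene's probes (56605 probes in all) was kept, and a gene was tested if, in 1 treatment's channel, 2 or more couples had it well above background on both of their arrays. The 2 arrays of a couple were averaged, since technical dye swaps are not replicates, and the mean of the couples' log2 ratios was compared with 0 in a two-sided test by lmFit, eBayes and Benjamini-Hochberg adjustment over 20475 genes, with 0.05 as the threshold. The median SE of a gene was 0.098, and the number of couples limits the precision. Ratios of dim probes are pulled toward 0 by the offset. Signals per sample are log2 intensities (loess, then Aquantile), averaged over the sample's arrays. Their levels are not comparable between probes. Same-numbered samples are paired through the arrays they share. Over genes, the r of their deviations from the group means was 0.095, 0.16 and 0.16 for couples 1, 2 and 3. All arrays share 1 slide and scan, so no batch was tested.

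The subunits, the related lists and the tests were chosen with earlier results of these data known. Named subunits are the 10 with the largest absolute mean ratio, the catalytic subunits, the caps, any with an unadjusted p under 0.05, the 3 with the smallest SD and any not tested. Genes named by chromosome, motif, probe agreement or ring neighbourhood were chosen after their values were seen. The fits were tested on simulated ratios with known changes.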

Additional observations from a re-analysis of the deposited data

How the results depend on the processing

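No subunit passed an adjusted p under 0.05 in any of 17 other ways of processing, of which 15 were planned; centring each gene on its chromosome and the dye term were chosen after seeing the data. The count of all genes past the test was 0 as reported. It was 56 when all 6 arrays entered with couples as a random replicate block, 9 when that block fit also had a dye term, and 1 with the channels taken apart as 3 tamoxifen against 3 oil samples, and 0 in the others. The count of subunits at an unadjusted p under 0.05, 1 as reported, was 3 with the block and 2 with the block and the dye term, 3 with median centring in place of loess, 6 with no filter on dim probes, 3 with the mean over all probes, 4 with only the arrays with tamoxifen in Cy5 and 3 with only those in Cy3, and 1 to 2 without a couple. Psmd10 kept its sign throughout, between 0.28 and 0.39, with adjusted p from 0.18 to 0.96. The count of same-signed subunits, 10 as reported, was 14 when couple 1 was left out, 19 for couple 2 and 25 for couple 3, as fewer couples then had to share a sign. The count without overlap, 5 as reported, was 11, 15 and 22 without couples 1, 2 and 3, and 9 with only tamoxifen in Cy3. It has no value where samples were not taken apart (the scanner software's ratio, the deposited table, loess with centring on tested genes, and centring on chromosomes). For the counts at an unadjusted p under 0.05, same-signed or without overlap, shares of all genes were computed only for the fit as reported. The subunit counts under other settings thus have no background beside them, and nothing is read from their size. The subunits' median was between -0.01 and 0.10 throughout.

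Of 323 values of named genes under these settings, 9 reversed. Some settings leave the mean ratio as reported by construction, so no sign could reverse there. These are the looser and stricter filters on dim probes, the block fits and the channels taken apart. The scanner software's ratio and the deposited table gave nearly the same values, so they are not separate checks. With only tamoxifen in Cy5, Psme3 was at 0.35, Psmb7 at -0.0052 and Nfe2l1 at 0.028. With only tamoxifen in Cy3, Psmd7 was at 0.075, Psme4 at 0.027 and Nfe2l2 at 0.064. Nfe2l2 was at 0.0395 with the mean over all probes and at -0.33 to 0.17 without a couple, reversing without couple 2. Psme4 was at -0.17 to 0.12 without a couple, reversing without couple 3. The cause was not tested, except that the arrays of Psme3 and Psmd7 split by dye. Of 255 medians of groups and lists, 248 moved by less than the SD of their couples. The settings that leave the mean ratios as reported could not move these medians either.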
